A study of Mus musculus with 48 samples.

Results

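The 10 genes described here encode 5 ephrin ligands (Efna1, Efna4, Efna5, Efnb1 and Efnb2) and 5 Eph receptors (Epha1, Epha2, Epha4, Ephb3 and Ephb4). They were found by symbol in the GRCm38 annotation and make up 10 of its 22 ephrin and Eph genes and 10 of the 49671 genes of the count table. All 10 had at least 1 count. Read counts came from 48 single cells of the inner cell mass (ICM) of 3 mouse blastocysts at E3.75, profiled by Smart-seq2, which amplifies full-length cDNA and has no molecular identifiers. The embryos came from Pdgfra H2B-GFP/+ mice crossed to C57BL/6JxCBA/J F1 hybrids, although the sample titles label every cell WT. They were positive for the reporter of Pdgfra expression, which was inserted at the Pdgfra locus, and Pdgfra is among the pPrE markers used below. The study chose the embryos for a scattered pattern of GFP in the ICM. No cell was treated, all cells share this background, and the trophectoderm was taken off by immunosurgery before the ICMs were dissociated. The labels do not say which embryo a cell came from, so the 48 cells are 1 sample without replicates, and SDs below describe the spread between cells.

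Cells were compared between the 2 main branches of the study's own clustering tree, 25 cells primed for epiblast (pEPI) and 23 primed for primitive endoderm (pPrE). The leaf names were read by eye. Since that tree rests on the expression of the cells compared, a difference between branches is a description and no test was made. When cells were instead split by the first principal component of 3533 variable genes, with every ephrin and Eph gene left out, 46 of 48 fell on the side of their branch. This split used the same cells and 3533 of the 3539 variable genes, so it is not an independent check of the branches. Of 8 pPrE markers, the 7 with a mean of at least 1 FPKM all had a mean at least 2-fold higher in the pPrE branch. Of 8 pEPI markers, 5 were at least 2-fold higher in the pEPI branch, and the other 3 (Esrrb, Tdgf1 and Zfp42) lay within 2-fold. Total counts per pEPI cell lay between 2052874 and 5470475, and per pPrE cell between 1718970 and 7342785. Summed levels of 8 trophectoderm markers lay between 15.8 and 196 FPKM in single pEPI cells and between 19.8 and 119 FPKM in single pPrE cells, with medians of 49.1 and 52.5, and Cdx2, the defining trophectoderm regulator, had counts in 2 pEPI cells and 1 pPrE cell.

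Eph receptors are receptor tyrosine kinases whose ligands, the ephrins, are themselves held in the membrane, so the pair signals between cells that touch. Ephrin-A ligands are tied to the membrane by a lipid (GPI) anchor and mainly bind EphA receptors, whereas ephrin-B ligands span the membrane, have a cytoplasmic tail and mainly bind EphB receptors. EphA4 also binds ephrin-B ligands, and EphB4 binds ephrin-B2 in preference to other ephrins. Signals run forward into the receptor cell and in reverse into the ligand cell, and ligand on one population facing receptor on another is a known arrangement at tissue boundaries and in cell sorting. At E3.75 pEPI and pPrE cells are still intermingled in the ICM, and the study asked what sorts them, which makes the distribution of ligands and receptors between the branches the question here.

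The stretches of DNA just upstream of 4 members are shown because they make up the ligand and receptor pairs followed cell by cell further on: the ligands Efna4 and Efnb2, with a higher mean in pPrE, and the receptors Epha4 and Ephb4, with a higher mean in pEPI. The receptors Epha2 and Ephb3, which were higher in pPrE, run the other way and are not shown, and Epha4 fell short of a 2-fold difference. Each is the 250 bases before the RefSeq start (GRCm38.p6), read 5′ to 3′ on the strand of the gene, at chr3:89338029-89338278 (minus strand) for Efna4, chr8:8661243-8661492 (minus) for Efnb2, chr1:77515089-77515338 (minus) for Epha4 and chr5:137349859-137350108 (plus) for Ephb4. Capitals mark a match to the letters bound by GATA factors, the family of the pPrE regulators Gata6 and Gata4.
Efna4: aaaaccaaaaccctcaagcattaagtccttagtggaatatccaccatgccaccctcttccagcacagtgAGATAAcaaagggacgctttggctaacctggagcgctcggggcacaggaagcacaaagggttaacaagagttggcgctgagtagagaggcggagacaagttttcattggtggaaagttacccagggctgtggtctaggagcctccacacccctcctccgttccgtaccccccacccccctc
Efnb2: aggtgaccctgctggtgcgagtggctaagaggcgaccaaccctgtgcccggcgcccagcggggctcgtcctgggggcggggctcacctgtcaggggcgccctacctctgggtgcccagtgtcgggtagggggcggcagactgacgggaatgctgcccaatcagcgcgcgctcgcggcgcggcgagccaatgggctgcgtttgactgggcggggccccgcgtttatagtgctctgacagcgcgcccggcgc
Epha4: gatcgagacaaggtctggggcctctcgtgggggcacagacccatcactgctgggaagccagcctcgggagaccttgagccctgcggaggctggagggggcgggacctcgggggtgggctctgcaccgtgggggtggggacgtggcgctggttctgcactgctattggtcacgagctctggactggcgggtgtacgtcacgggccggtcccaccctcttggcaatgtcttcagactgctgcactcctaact
Ephb4: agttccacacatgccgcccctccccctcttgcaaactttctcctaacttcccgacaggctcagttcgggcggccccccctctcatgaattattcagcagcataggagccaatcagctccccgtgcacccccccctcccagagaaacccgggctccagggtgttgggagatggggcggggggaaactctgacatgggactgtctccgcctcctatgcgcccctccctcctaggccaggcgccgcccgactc
The search covered AGATAA with its variant form AGATAG, then TGATAA with its variant form TGATAG for GATA factors, and the letters ACAAT for SOX factors, on both strands. No match of one motif overlapped one of another in these windows. Efna4 held 1 GATA match, 181 bases before its start. None of the other 9 members held a GATA match and none of the 10 held a SOX match in this window. Of 32817 promoters of the same length, 26.6% held a GATA match and 27.7% a SOX match, so a single match among 10 genes is a description and not a site.

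Expression is given as FPKM, a count scaled by exon length and library size, which allows levels of different genes to be compared per length. Differences are log2 ratios of the mean FPKM, pPrE over pEPI, so that positive values are higher in pPrE; a gene is called here when the ratio is at least 2-fold (a log2 ratio of at least 1 or at most -1), with no test. The 95% interval behind a ratio is approximate and covers counting error only, since several reads can stem from the same molecule. Exact binomial intervals of shares of cells take cells as independent, which cells of the same embryo need not be. Of the 10 members, 5 were called higher in pPrE (Efna4, Efnb1, Efnb2, Epha2 and Ephb3) and 3 higher in pEPI (Efna1, Efna5 and Ephb4), where 16.9% and 20.3% of all 20340 genes above the counting floor were called in these directions. Restricted to a mean of at least 1 FPKM over all cells, 6 members remained, of which 3 were called higher in pPrE (Efna4, Epha2 and Ephb3) and 1 higher in pEPI (Ephb4). The background among the 10880 genes at that level was 6.2% higher in pPrE and 9.03% higher in pEPI. The median log2 ratio of those 6 members was 0.89, against 0.002 for the 10880 genes. The members were chosen with earlier results of these data known, so their counts and median are not a neutral draw to set against this background. Of the 12 other family genes, 3 had a mean of at least 1 FPKM, and 0 of these were called in either direction.

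**Figure D1:**
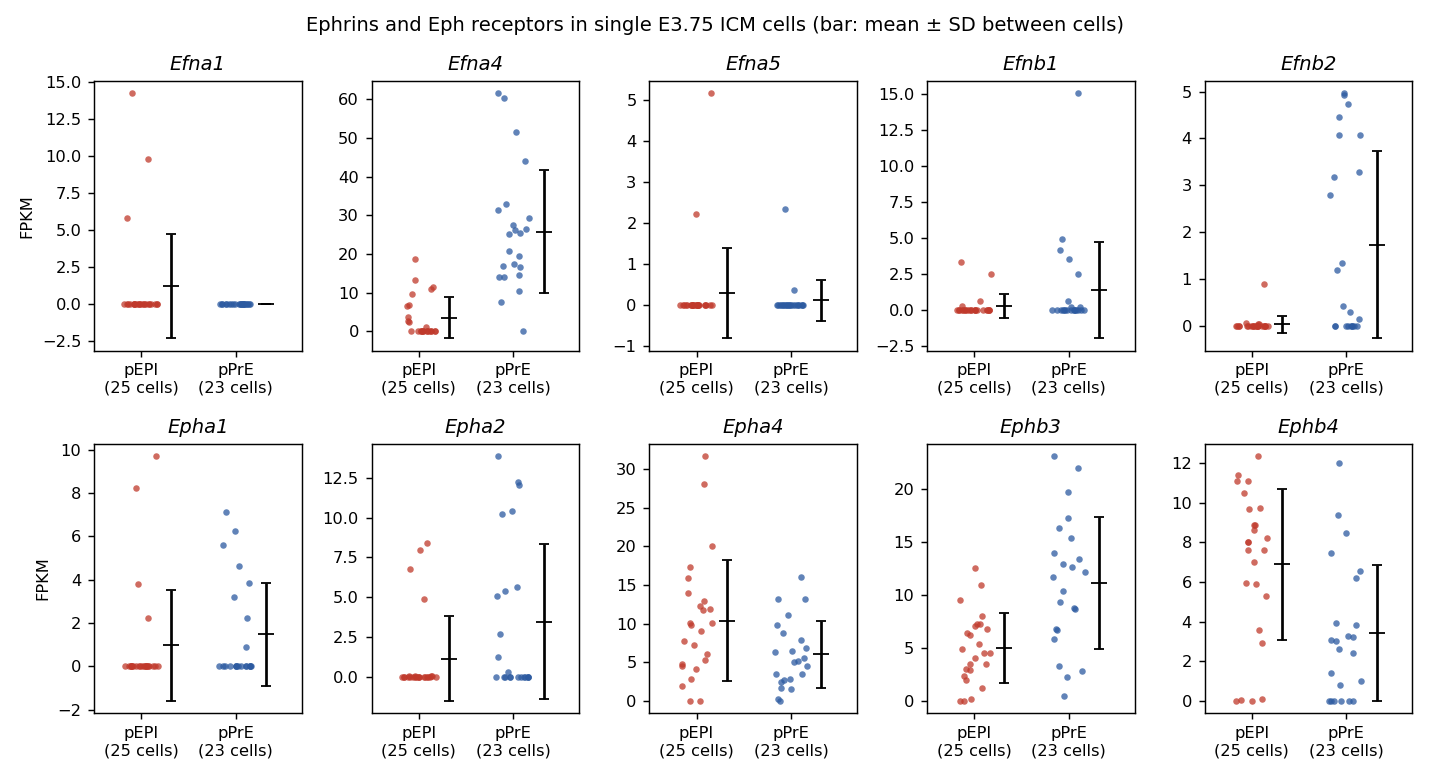
FPKM of each of the 10 members in single cells (points) of the pEPI branch (25 cells) and the pPrE branch (23 cells), with the mean ± SD between cells beside them; each panel has its own linear axis, and SD bars that reach below 0 are drawn in full. Efna4 stands out as the ligand with the least overlap, with 22 of 23 pPrE cells above 5 FPKM and 7 of 25 pEPI cells.

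Efna4, a GPI-anchored ephrin-A ligand (chr3:89333390-89338028, minus strand), was the most abundant member in pPrE. Its level ran from 0 through a median of 25.03 to a highest value of 61.5 FPKM in the 23 pPrE cells, and from 0 through a median of 0 to 18.8 FPKM in the 25 pEPI cells. Means were 25.8 ± 15.8 (SD) and 3.51 ± 5.34 FPKM, a log2 ratio of 2.88 (95% counting interval 2.75 to 3.01) or 7.35-fold. This is the only member for which the difference of the means exceeded the sum of both SDs. Counts were found in 22 of 23 pPrE cells (95.7%, exact binomial 95% interval 78.1 to 99.9%) and in 12 of 25 pEPI cells (48%, 27.8 to 68.7%). The branches nevertheless overlapped: the pPrE cell in well A1 had no count, and the pEPI cells in wells C2 and A3, at 18.8 and 13.3 FPKM, were above the pPrE cells in wells B8 and E6, at 7.59 and 10.5 FPKM. A pPrE cell was higher than a pEPI cell in 93.0% of the 575 pairs of one of each. An antisense gene, 4731419I09Rik, covers 10.5% of the exonic bases of Efna4, and because the libraries do not record strand the reads there cannot be assigned to one or the other; it had 283 counts of its own against 4481 for Efna4. Efna4 is in a list of actin-cytoskeleton-related genes that the study chose in part on these cells, so its place there is not independent of the values given here.

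The other ephrin-A members were sparse. Efna1 (chr3:89271733-89281142, minus) was detected in 3 of 25 pEPI cells, at 14.2 FPKM in well A3, 9.76 in well E4 and 5.81 in well A7, and in 0 of 23 pPrE cells. With 179 counts against 0, its mean of 1.19 ± 3.51 FPKM in pEPI set pPrE at least 71.7-fold lower, the zero being replaced by a floor of 3 counts over the branch. All 3 cells lie in wells with Y-linked counts. The 0 of 23 cells allow a share of up to 14.8% by the exact interval, which takes cells as independent. So 3 cells are all that this direction rests on, and the log2 ratio was -0.25 when cells were split by the first principal component. Efna5 (chr17:62604184-62881317, minus) had counts in 2 cells of each branch, in pEPI at 5.16 and 2.22 FPKM and in pPrE at 2.35 and 0.37 FPKM. Its log2 ratio of -1.32 (-1.79 to -0.86) turned to 0.44 without the cells of wells F, since 77.8% of its pEPI counts came from the cell in well F1.

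Both ephrin-B members, transmembrane ligands, had more counts in pPrE. Efnb2 (chr8:8617434-8661242, minus), the preferred ligand of EphB4, ran from 0 through a median of 0.44 to 4.96 FPKM in pPrE and was detected in 14 of 23 cells, of which 11 reached 1 FPKM. In pEPI it was detected in 4 of 25 cells, of which none reached 1 FPKM and 1, in well E5 at 0.91 FPKM, held 84% of the 25 counts. Means were 1.74 ± 1.99 and 0.043 ± 0.18 FPKM, a log2 ratio of 5.33 (4.76 to 5.97). That ratio was 8.26 without the cells of wells E, 4.36 without those of wells D and 3.753 in cells with Y-linked counts, and on the median over cells plus 1 FPKM it was 0.52 and no longer reached 2-fold. Efnb2 is therefore a ligand of low level and large ratio, and its level varied within pPrE itself. There 9 cells had no count, 9 were between 2.80 and 4.96 FPKM, and the rest lay between 0.149 and 1.35 FPKM. Efnb1 (chrX:99136130-99148991, plus), the X-linked ephrin-B, was detected in 8 pPrE cells and 4 pEPI cells, with means of 1.36 ± 3.33 and 0.27 ± 0.81 FPKM. Its log2 ratio was 2.35 (2.02 to 2.69). The median was 0 in both branches. The pPrE cell of well D1 was highest, at 15.02 FPKM and 29.2% of the pPrE counts, and no other cell was above 4.93 FPKM.

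Among the EphA receptors, Epha4 (chr1:77367185-77515088, minus), which binds ligands of both classes, was the most abundant member in pEPI. It ran from 0 through 9.89 to 31.7 FPKM in pEPI and from 0 through 5.15 to 16.03 FPKM in pPrE, and was detected in 23 of 25 and 22 of 23 cells. Means of 10.4 ± 7.85 and 6.04 ± 4.34 FPKM gave a log2 ratio of -0.78 (-0.83 to -0.73), which is short of 2-fold and within the SD of pEPI. Epha4 was thus broad in both branches, with the higher value on the pEPI side in 67.1% of pairs.

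Epha2 (chr4:141301240-141329384, plus), a receptor for ephrin-A ligands, was detected in 8 of 25 pEPI cells and 11 of 23 pPrE cells, with medians of 0 in both branches and highest values of 8.40 and 13.9 FPKM. The means of 1.13 ± 2.67 and 3.44 ± 4.88 FPKM gave a log2 ratio of 1.61 (1.47 to 1.75). Its cells were not spread evenly over the wells, as described further on. Epha1 (chr6:42358487-42373268, minus), another EphA receptor, was found in 4 pEPI and 8 pPrE cells, at 0.96 ± 2.57 and 1.47 ± 2.37 FPKM, a log2 ratio of 0.61 (0.41 to 0.81). All 4 pEPI cells with Epha1 were at 2.23 FPKM or more and the median was 0 in both branches. Epha1 shares 6.01% of its exonic bases with Zyx on the opposite strand, a gene with 17514 counts against 851 for Epha1, so some of these reads may belong to either gene.

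Of the EphB receptors, Ephb3 and Ephb4 were broad and leaned to opposite branches. Ephb3 (chr16:21204755-21223305, plus) ran from 0.47 through 11.7 to 23.1 FPKM in pPrE, with counts in every cell, and from 0 through 4.53 to 12.5 FPKM in pEPI. Means of 11.1 ± 6.18 and 4.97 ± 3.30 FPKM gave a log2 ratio of 1.16 (1.11 to 1.22). Ephb4 (chr5:137350109-137378669, plus), the receptor of ephrin-B2, ran from 0 through 8.04 to 12.4 FPKM in pEPI, with counts in 23 of 25 cells, and from 0 through 3.04 to 11.995 FPKM in pPrE, with counts in 17 of 23. Means of 6.90 ± 3.82 and 3.43 ± 3.42 FPKM gave a log2 ratio of -1.01 (-1.10 to -0.92), right at the 2-fold line, and it came to -0.86 without the cells of wells C and -0.70 without those of wells D. A pPrE cell had the higher Ephb3 in 79.8% of pairs, and a pEPI cell the higher Ephb4 in 74.1%. The levels of both genes overlapped widely between branches.

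**Figure D2:**
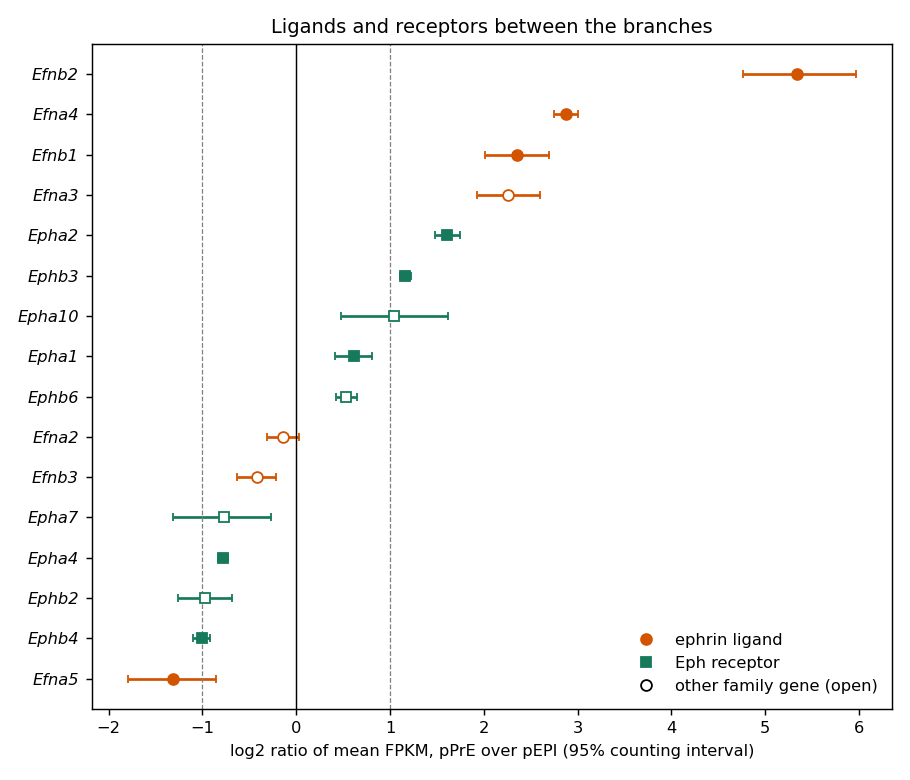
Log2 ratio of mean FPKM, pPrE over pEPI, with approximate 95% counting intervals, for 9 members (filled) and 7 other family genes (open) with counts in both branches; circles are ligands, squares receptors, dashed lines mark 2-fold. The ligands Efnb2, Efna4 and Efnb1 lie farthest to the right and the ligand Efna5 farthest to the left, at -1.32. The receptors lie between -1.01 (Ephb4) and 1.61 (Epha2). Efna1, a ligand without counts in pPrE, is not drawn.

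Summed over the members of each class, ligands differed more between the branches than receptors did. Of the ligands outside these sums, Efna2 and Efnb3 had log2 ratios of -0.14 and -0.42, and Efna3 of 2.26. In pEPI, Efnb3 alone had a mean of 1.43 FPKM, more than the ephrin-B members together, and in pPrE 1.07 FPKM, less than they had. Among the ephrin-A members, Efna1 and Efna5 were called higher in pEPI. The 3 ephrin-A members together came to 25.9 ± 15.8 FPKM in pPrE and 4.995 ± 7.72 in pEPI, a log2 ratio of 2.37 (2.27 to 2.48), and Efna4 made up 99.5% and 70.3% of these sums. The 2 ephrin-B members came to 3.10 ± 4.55 and 0.31 ± 0.82 FPKM, a log2 ratio of 3.32 (3.05 to 3.60). The 3 EphA members came to 10.95 ± 6.28 in pPrE and 12.5 ± 8.73 in pEPI, a log2 ratio of -0.19 (-0.23 to -0.14). Epha4 was 55.2% of the EphA sum in pPrE and 83.3% in pEPI. The 2 EphB members came to 14.6 ± 6.20 and 11.9 ± 4.41 FPKM, a log2 ratio of 0.29 (0.25 to 0.34), where Ephb3 made up 76.5% of the sum in pPrE and 41.9% in pEPI. Epha4 thus led the EphA sum in both branches, and the leading EphB receptor was Ephb3 in pPrE and Ephb4 in pEPI. The receptor totals lay close together, and their direction was not stable: taken from the median over cells the EphA ratio was 0.093, and within wells C3 to D3 the EphB ratio was -0.18. Which differences between classes exceed the spread between embryos cannot be told with cells of unknown embryo.

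In order of mean level, pEPI was led by Epha4, Ephb4 and Ephb3, followed by Efna4, Efna1, Epha2, Epha1, Efna5, Efnb1 and Efnb2. The order in pPrE was Efna4, Ephb3, Epha4, Epha2, Ephb4, Efnb2, Epha1, Efnb1, Efna5 and Efna1. No gap between neighbours in either order exceeded the larger of their SDs. The first 3 places were held by receptors in pEPI, and by a ligand and 2 receptors in pPrE.

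**Figure D3:**
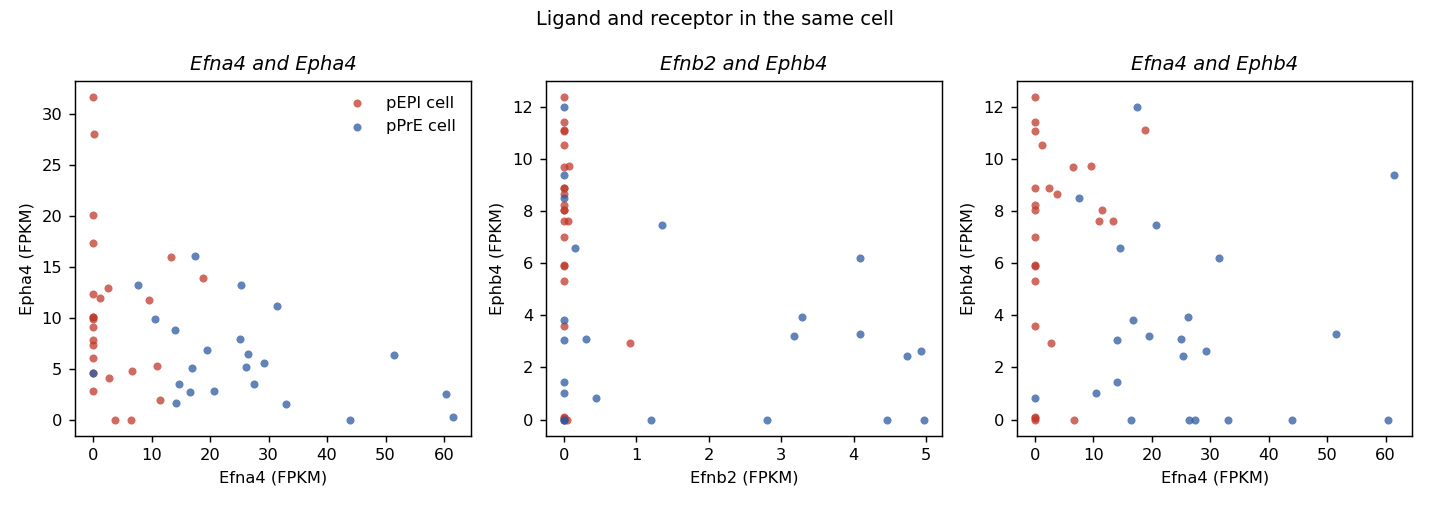
Ligand (horizontal axis, FPKM) against receptor (vertical axis, FPKM) in each of the 48 cells for Efna4 with Epha4, Efnb2 with Ephb4, and Efna4 with Ephb4, coloured by branch. In the first panel 13 pPrE cells and 4 pEPI cells have both genes at 5 FPKM or more, and in the second no cell has. The third panel sets an ephrin-A ligand against an EphB receptor, classes that do not mainly bind each other.

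Ligand and receptor were not exclusive of each other within a cell. At a level of 5 FPKM, 18 of 23 pPrE cells (78.3%, exact interval 56.3 to 92.5%) held both an ephrin-A and an EphA member, against 6 of 25 pEPI cells (24%, 9.36 to 45.1%). Another 13 pEPI cells and 1 pPrE cell held an EphA member without an ephrin-A member, and 3 pEPI and 4 pPrE cells the ligand alone. The ephrin-A ligands Efna2 and Efna3, outside the members, are not counted here. Efna2 reached 5 FPKM in 6 pEPI and 6 pPrE cells, and Efna3 in 0 pEPI and 2 pPrE cells. At 1 FPKM the cells with both numbered 12 of 25 and 21 of 23, with 13 pEPI cells and 1 pPrE cell having the receptor alone. The single pair of Efna4 with Epha4 reached 5 FPKM together in 4 pEPI and 13 pPrE cells, and 14 pEPI cells and 0 pPrE cells had Epha4 without Efna4. Across the 48 cells Efna4 and Epha4 had a Spearman rho of -0.35, with -0.16 within pEPI and -0.35 within pPrE. These correlations describe cells of one experiment, which share embryos and preparation.

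In the B class the ephrin-B members were too low for the 5 FPKM level, which 1 cell reached (well D1, with Efnb1). Efnb3, the ephrin-B ligand outside the members, reached it in 3 pEPI cells and 1 pPrE cell and is not counted here. At 1 FPKM, 12 of 23 pPrE cells (52.2%, 30.6 to 73.2%) and 2 of 25 pEPI cells (8%, 0.98 to 26.03%) held both an ephrin-B and an EphB member. Every cell of both branches held an EphB receptor at that level. These numbers leave out Efnb3, which reached 1 FPKM in 7 pEPI cells and 4 pPrE cells. Counting it, at least 7 pEPI cells held an ephrin-B ligand with an EphB receptor. For Efnb2 with Ephb4, 7 pPrE cells and 0 pEPI cells held both, 4 pPrE cells had Efnb2 alone, and 21 pEPI and 9 pPrE cells had Ephb4 alone. The rho of Efnb2 with Ephb4 over the 48 cells was -0.42, and -0.21 within each branch. The value within pEPI rests on 4 cells with Efnb2 counts. All 11 cells with Efnb2 at 1 FPKM also had Ephb3.

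Counting every ordered pair of different cells shows where a ligand on one cell would meet a receptor on another if any 2 cells touched. At 5 FPKM, the ligand cell had Efna4 and the receptor cell Epha4 in 68.9% of the 575 pairs from pPrE to pEPI, 54.0% of the 506 pairs within pPrE, 20.3% of the 600 pairs within pEPI and 15.8% of the 575 pairs from pEPI to pPrE. For any ephrin-A with any EphA member the same shares were 72.7%, 79.1%, 27.5% and 29.7%, so that the highest share moved from pairs between branches to pairs within pPrE once Epha2 and Epha1 were counted. With Efnb2 and Ephb4 at 1 FPKM the shares were 40.2% from pPrE to pEPI and 33.4% within pPrE, and 0% where the ligand cell was pEPI. With Ephb3 as the receptor, the order of the first pair of shares was the other way, 42.1% from pPrE to pEPI and 45.7% within pPrE. These pairs reuse each cell many times and say nothing of which cells were neighbours in the ICM.

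Y-linked counts divided the cells into 29 with at least 242 counts over 4 Y-linked genes and 19 with at most 1, in 4 unbroken runs of wells. Both the 18 cells of wells A1 to C2 and the 11 of wells E1 to F3 had them, and neither the 14 cells of wells C3 to D8 nor the 5 of wells F4 to F8 did. Epha2 followed the wells as well as the branches. In the 9 wells from C3 to D3 it was at 4.87 FPKM or more in 8 cells, 4 pEPI and 4 pPrE, and at 0 in the pPrE cell of well D2. In the other 39 wells it reached 1 FPKM in 6 cells, all pPrE, and no pEPI cell exceeded 0.068 FPKM. The log2 ratio of Epha2 was accordingly 0.36 within wells C3 to D3 and 7.53 outside them, against 1.61 in all cells. The pEPI side of the 7.53 had 1 count in each of 4 cells, near the floor of 3 counts, so its size is poorly set. That stretch of wells was chosen after its Epha2 values were seen, and what sets it apart was not tested.

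**Figure D4:**
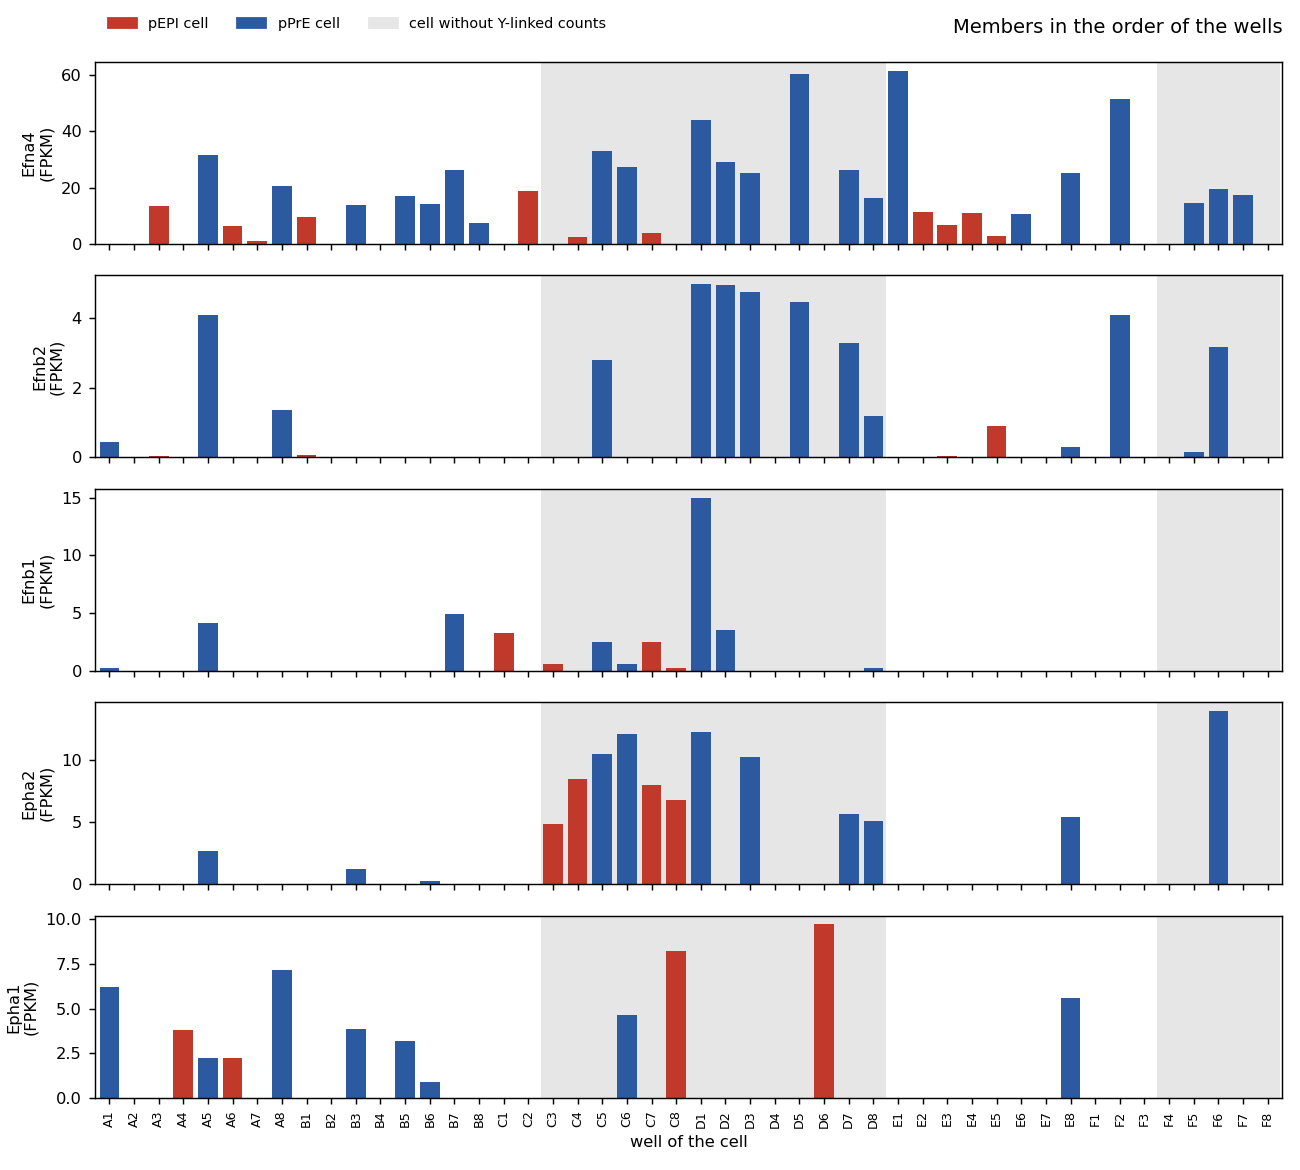
FPKM of Efna4, Efnb2, Efnb1, Epha2 and Epha1 (linear axes) in each of the 48 cells in the order of the wells, bars coloured by branch, with cells that lack Y-linked counts on a grey ground. Epha2 is high in both branches in 8 of the 9 wells from C3 to D3, whereas Efna4 is at 7.59 FPKM or more in 22 of 23 pPrE cells, in every run of wells, and at 0 in the pPrE cell of well A1.

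Other members also differed along the wells. Efnb1 had counts in 7 of the 9 cells of wells C3 to D3 and in 5 of the other 39, and in none of the 16 cells of wells E1 to F8. Efnb2 in pPrE was at a mean of 2.70 ± 2.03 FPKM in the 11 cells without Y-linked counts, 9 of them with counts, and at 0.85 ± 1.56 FPKM in the 12 with them, 5 of them with counts. Among pEPI cells it was detected in 4 of the 17 that had Y-linked counts and 0 of the 8 that lacked them. Epha1 turned direction: its log2 ratio was 2.77 in cells with Y-linked counts and -2.41 in cells without, where 2 pEPI cells and 1 pPrE cell had it. Efna4 was higher in pPrE in both sets, at 23.3 ± 17.8 against 4.79 ± 6.03 FPKM in cells with Y-linked counts and 28.5 ± 13.5 against 0.79 ± 1.49 FPKM in cells without. Epha4, Ephb3 and Ephb4 also kept their direction in both sets, with log2 ratios of -0.73 and -0.78 for Epha4, 1.26 and 1.06 for Ephb3, and -0.76 and -1.35 for Ephb4 with and without Y-linked counts. The part of embryo or sex in these differences was not tested.

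The genes whose level over the 48 cells was most like that of a member are named where Spearman's rho was at least 0.6. For Efna4 they were F2r, a thrombin receptor (rho 0.76), Sox17, a primitive endoderm transcription factor (0.76), and Creb3l2 (0.75). Within pEPI and pPrE, the rho with Efna4 was lower, at 0.23 and 0.51 for Sox17 and 0.47 and 0.31 for Creb3l2. F2r had a rho of 0.60 with Efna4 within pPrE and of -0.22 within pEPI, where F2r was at a mean of only 0.73 FPKM. Efna4 had a rho of -0.77 with Nanog, a pEPI marker, over all cells and of -0.29 and -0.19 within pEPI and pPrE. For Efnb2 they were Foxq1 (0.72), Dok2 (0.67) and Nostrin (0.66). Within pEPI and pPrE these came to 0.36 and 0.70 for Foxq1, 0.38 and 0.46 for Dok2, and 0.53 and 0.52 for Nostrin. Efnb2 and Efna4 had a rho of 0.60 with each other, 0.48 within pEPI and 0.52 within pPrE. Only 4 of 25 pEPI cells had an Efnb2 count, 25 counts in all, so every rho of Efnb2 within pEPI rests on 4 cells. Epha2 was most like Eno1b (0.70), an enolase gene, Gm4735 (0.68) and Hspb1, a small heat-shock protein (0.64), with values of 0.75, 0.71 and 0.68 within pEPI and 0.65, 0.64 and 0.51 within pPrE. Within pEPI, Epha2 reached 1 FPKM in only 4 cells, all in wells C3 to D3. The likeness of Epha2 there cannot be told apart from that stretch of wells. Ephb4 was most like Cldn7, a tight-junction claudin, at 0.61, with 0.40 within pEPI and 0.56 within pPrE. The likeness of Efna1 with 0610043K17Rik (0.68) and of Efna5 with Gm11522 (0.72) rested on 3 and 4 cells with the member. No gene reached 0.6 with Efnb1, Epha1, Epha4 or Ephb3.

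Of the 12 further ephrin and Eph genes in the annotation, 4 receptors (Epha3, Epha5, Epha8 and Ephb1) had no count in any cell and 8 had some. The ephrin-A ligand Efna3, which lies between Efna1 and Efna4 on chromosome 3, was at 1.48 ± 3.62 FPKM in pPrE (10 cells) and 0.31 ± 1.00 in pEPI (4 cells), a log2 ratio of 2.26 (1.93 to 2.60). Ephb6, a receptor whose kinase domain is inactive, was at 4.16 ± 5.10 and 2.88 ± 4.76 FPKM, a log2 ratio of 0.53. The ligands Efna2 and Efnb3 lay within 2-fold, with log2 ratios of -0.14 and -0.42, and Efna2 had levels of 2.61 ± 3.77 in pPrE and 2.89 ± 3.77 in pEPI. The receptors Epha6, Epha7, Epha10 and Ephb2 were below 0.25 FPKM on average in each branch.

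A list of 56 signalling partners of the family was looked up for the machinery behind these receptors, and 53 had counts and 33 a mean of at least 1 FPKM. Of these 33, 2 were called higher in pPrE, 4 higher in pEPI and 27 lay within 2-fold, where 6.2% and 9.03% of all genes at that level were called in these directions, so the counts are near the background and single out nothing about the list. Its median log2 ratio was -0.04 beside the 0.002 of all genes at that level. Higher in pPrE were Rasa1, a Ras GTPase-activating protein that binds activated Eph receptors (4.20 ± 2.75 against 2.01 ± 2.11 FPKM, log2 ratio 1.06), and Rock2, a kinase of the actin cytoskeleton (3.22 ± 2.95 against 1.59 ± 1.93, 1.02). The 4 higher in pEPI were the adaptors Nck2 (7.68 ± 5.72 against 3.43 ± 3.57 in pPrE, -1.16) and Grb7 (7.20 ± 6.87 against 2.14 ± 3.62, -1.75), the guanine nucleotide exchange factor Arhgef19 (1.89 ± 2.45 against 0.46 ± 1.49, -2.02) and Chn1, a Rac GTPase-activating protein that acts downstream of EphA4 (2.92 ± 3.18 against 1.04 ± 1.60, -1.49). None of the 7 kinases and phosphatases or the 4 protease genes at this level was called, among them Yes1 (log2 ratio 0.14) and Adam10 (-0.04). The small GTPases Rhoa, Rac1 and Cdc42 were among the most abundant partners, with log2 ratios of -0.36, -0.05 and 0.05.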

How the data were processed

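Paired reads of 48 single cells were counted per gene by the authors, with htseq-count on the genes of Ensembl 87 after alignment to the mm10 genome, as their methods state; the submitters' processing notes name STAR and HTSeq without versions. The deposited values are whole-number counts without normalization. Libraries under 500000 mapped reads, skewed along gene bodies or apart by PCA had been left out by the authors. The members and gene lists were chosen with earlier results of these data known.

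FPKM was computed from the union of exons in the GENCODE mouse annotation of GRCm38 and library sizes by the median of ratios. Cells are not replicates, so no test was run; the study's scde test was not repeated. Ratios of means carry an approximate counting interval, in which the width of the exact interval of the summed counts is placed around the ratio, and shares of cells an exact binomial one. A branch at 0 was set to a floor of 3 counts over the branch. Named were all members, all other family genes, partners called at a mean of at least 1 FPKM, marker lists, and the 3 genes most like each member where rho was at least 0.6. The steps were tested on simulated data. 1 result on a partner gene is not reported here. Sequences came from RefSeq, in which all 10 members had a promoter. Alternatives changed the library size, summary, depth, grouping, level and cells. Tools were pandas 2.3.3 with numpy 2.4.6 and scipy 1.17.1 under Python 3.11.15, and matplotlib 3.10.9 for plots.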

Additional observations from a re-analysis of the deposited data

How the results depend on the processing

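Efna4, Efnb2, Epha4, Ephb3 and Ephb4 kept their direction in all 16 alternatives that were run. Efna5 reversed, to a log2 ratio of 0.44 without wells F. It came to at least 3.41 in cells without Y-linked counts and at least 3.752 within wells C3 to D3. Both of these are bounds set by the floor of 3 counts, since no pEPI cell there had Efna5, and they rest on 2 pPrE cells. Epha1, at 0.61 in all cells, came to -2.41 in cells without Y-linked counts and -1.15 within wells C3 to D3, and the likeness of Efna4 with F2r came to -0.22 within pEPI. With the median over cells plus 1 FPKM, 2 members were called higher in pPrE and 1 in pEPI, and the class ratios came to 4.53 (ephrin-A), 1.23 (ephrin-B), 0.093 (EphA) and 0.19 (EphB). With cells grouped by the first principal component, 4 members were called higher in pPrE and 1, Efna5 at -1.56, higher in pEPI. Ephb3 and Ephb4 then fell just short of 2-fold, at 0.998 and -0.978. The ephrin-A and EphB ratios in this grouping were 2.61 and 0.19. In cells with Y-linked counts the ephrin-A, ephrin-B and EphB ratios were 1.74, 2.66 and 0.43, and in cells without them the ephrin-A, EphA and EphB ratios were 5.19, -0.31 and 0.12. Summed CPM gave an ephrin-B ratio of 2.997, and leaving out the highest cell of each branch gave 2.58 for ephrin-A and 3.65 for ephrin-B. Without wells C3 to D3, an alternative chosen after seeing the data, ephrin-A came to 2.10 and EphB to 0.40, and within those wells ephrin-A came to 4.36, EphA to -0.28 and EphB to -0.18.

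Leaving out the cells of one well letter at a time gave 2.09 to 2.70 for ephrin-A, 2.33 to 5.78 for ephrin-B (highest without wells C), -0.37 to -0.12 for EphA and 0.23 to 0.43 for EphB, with 5 to 6 members called higher in pPrE and 2 to 3 in pEPI. Over these, Efna5 ranged from -4.46 (without wells C) to 0.44 and Epha1 from 0.015 to 1.68. Efnb1 ranged from 1.34 to 6.81 and Epha2 from 1.14 to 7.89, both highest without wells C. The 6.81 of Efnb1 is a bound set by the floor, because every pEPI cell with Efnb1 counts lies in wells C. The 7.89 of Epha2 rests on a pEPI side with 1 count in each of 4 cells. Among members, cells with ligand and receptor numbered 33 and 9 in the A class at 1 and 10 FPKM, against 24 at 5 FPKM. In the B class they numbered 14 at 1 FPKM, against 1 at 5 FPKM. Cells with a member detected, summed over members, numbered 207 at 1 FPKM and 136 at 5 FPKM. The share of all genes called was 3.06% higher in pPrE and 4.93% in pEPI at a mean of 5 FPKM, and 16.9% and 20.3% with no filter. Thinning every cell to 1718970 counts changed the number of cells with a count for Efnb2 in pPrE, from 14 to 13, and for no other member. The causes were not tested. No paired analysis was possible because the cells carry no replicate numbers and 1 sample has no groups to pair.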
